A study of Mus musculus with 6 samples.

Results

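The Id and Hes/Hey helix-loop-helix repressors are 10 genes: Id1, Id2, Id3, Id4, Hes1, Hes3, Hes5, Hes6, Hey1 and Hey2. Their rows were found by gene name, and all 10 had one in the deposited RNA-seq table, which holds 22969 distinct gene names. The RNA came from E14Tg2a, a mouse embryonic stem cell (ESC) line, at passages 37 to 40. Of the 6 samples, 3 were pluripotent ESCs grown in medium containing serum and leukemia inhibitory factor (LIF), and 3 were neuronal cells (NCs), which are the same line grown as monolayers for 48 h without LIF and with 1 µM retinoic acid (RA). Both arms thus came from a single line, and RA addition and LIF removal cannot be told apart. The comparison asks which of the repressor genes were expressed at another level after the cells had started neuronal differentiation.

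Members of the helix-loop-helix family bind DNA as dimers through a basic region beside the helix-loop-helix. Id proteins lack that basic region. They pair with the E proteins, the common partners of proneural factors, and hold them off DNA, and their genes are classical targets of bone morphogenetic protein (BMP) signalling, which acts with LIF to keep mouse ESCs from neural differentiation. Hes and Hey proteins do bind DNA and act as repressors. Hes proteins recruit Groucho corepressors and repress proneural genes. Hes1, Hes5, Hey1 and Hey2 are targets of the Notch receptors through the DNA-binding protein RBPJ. Hes6 is the exception among the Hes proteins, since it opposes Hes1 and favours neuronal differentiation.

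Id1, Id2 and Id3 were far higher in NCs than in ESCs, while Id4 and Hes6 were lower and Hes1 and Hey1 were near the same level in both. All values are FPKM, the number of sequenced fragments of a gene relative to its transcript length and to all mapped fragments, so a level that is already divided by length. The table gives 1 value per gene and condition, estimated by the authors from 3 replicates, so no spread among replicates was at hand and no difference was tested. A gene is therefore said to have risen or fallen when its FPKM differed at least 2-fold, among the 13292 genes with at least 1 FPKM in either condition. Of the 10 members, 8 reached 1 FPKM in either condition, and 4 of these rose, 2 fell and 2 stayed within 2-fold, whereas 12.5% of all genes that reached that level rose and 10.6% fell. When the values of each condition were instead scaled to the same total, all log2 ratios moved up by 0.29, the shares became 17.7% and 7.37%, 4 members still rose and 0 fell.

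**Figure D1:**
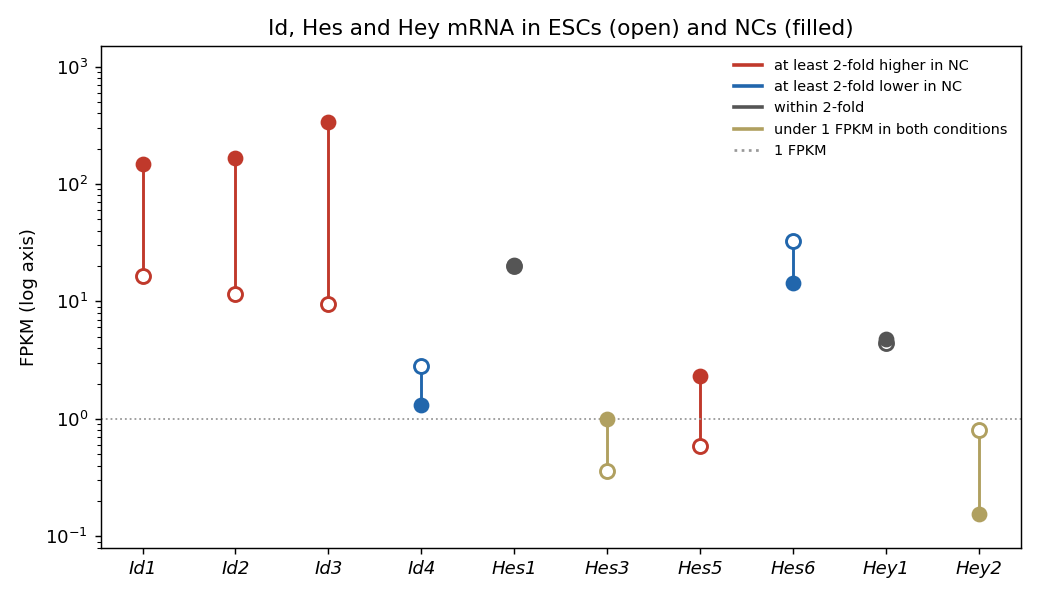
FPKM of the 10 members on a log axis, with an open circle for ESCs and a filled circle for NCs (pooled values, no error available) and a dotted line at 1 FPKM. Id1, Id2 and Id3 went from between 9.56 and 16.5 FPKM to between 149 and 337 FPKM, the circles of Hes1 coincide, and Hes3 and Hey2 lie under the line in both conditions.

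Id1 (ENSMUSG00000042745, GRCm38 chr2:152736251-152737410, plus strand), which holds E proteins off DNA and is a BMP target in ESCs, was at 16.5 FPKM in ESCs against 149 FPKM in NCs, a 9.03-fold rise (log2 ratio 3.17). Among the 13292 genes, 328 (2.47%) had a larger log2 ratio. Id1 was the Id gene with the highest level in ESCs and the lowest of the 3 risen Id genes in NCs.

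Id2 (chr12:25093799-25097140, minus strand), which binds E proteins in the same way, was at 11.5 FPKM in ESCs against 166.5 FPKM in NCs. This was a 14.4-fold rise (log2 ratio 3.85), and 230 genes (1.73%) had a larger ratio. In ESCs 47.9% of the genes had a higher level than Id2, and in NCs 3.62% did.

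Id3 (chr4:136143497-136145755, plus strand) had the largest rise among the members. It was at 9.56 FPKM in ESCs, the lowest of Id1, Id2 and Id3, and at 337 FPKM in NCs, the highest of them. The rise was 35.2-fold (log2 ratio 5.14), which 130 genes (0.978%) exceeded. In NCs 1.72% of the 13292 genes had a higher level than Id3, against 52.9% in ESCs.

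Id4 (chr13:48261228-48266026, plus strand), the family member best known from neural precursors, went the other way. It was at 2.81 FPKM in ESCs against 1.30 FPKM in NCs, 2.16-fold lower (log2 ratio -1.11). The ratio was lower in 1221 genes (9.19%), and with both conditions scaled to the same total it was -0.82, within 2-fold. Of the 50-base words in the Id4 transcripts, 2.08% also occurred in A330033J07Rik or Gm49291, which are annotated on the other strand, and the use of strand in the counting is not given in the sources used here, so reads in that shared stretch cannot be assigned to a gene.

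Summed over the 4 Id genes, the level was 40.4 FPKM in ESCs against 653.8 FPKM in NCs, 16.2-fold higher. The make-up of the sum differed as well. Id1 made up 40.9% of it in ESCs and 22.8% in NCs, Id2 made up 28.5% and 25.5%, and Id3 made up 23.6% and 51.5%. Id4 made up 6.95% of the sum in ESCs and 0.199% in NCs. The ratio of Id3 to Id1 was thus 0.578 in ESCs and 2.26 in NCs. In a bulk sample a larger number of cells with a transcript and more of it per cell cannot be told apart, and this holds for every gene given here.

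**Figure D2:**
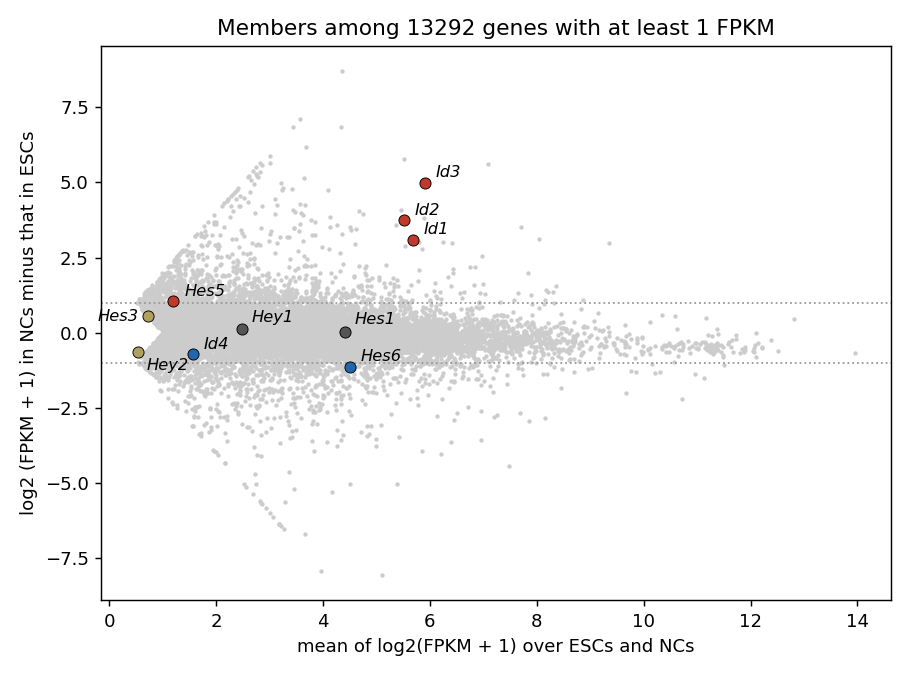
Difference of log2(FPKM + 1) between NCs and ESCs on the vertical axis against its mean over both conditions on the horizontal axis, for the 13292 genes with at least 1 FPKM in either condition (grey) and the 10 members (coloured as higher, lower, within 2-fold, or under 1 FPKM), with dotted lines at 2-fold. Id1, Id2 and Id3 lie near the upper edge of genes of their mean level, and because of the added 1 FPKM the low genes Id4 and Hes5 lie closer to 0 than their ratios of -1.11 and 1.96.

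Sequences before the RefSeq starts of Id2 and Id4 are shown because both hold a GGCGCC box, the kind of GC-rich element that BMP Smads bind in Id promoters. Promoter windows from RefSeq (build GRCm38.p6, 250 bases before the annotated start) were found for 6 of the 10 members, Id2, Id3, Id4, Hes5, Hes6 and Hey2, with a pair of windows for Hes6. The Id2 window precedes the RefSeq start but lies inside the Id2 span of GENCODE M21, where a longer transcript starts farther upstream. For Id2 only the 89 bases that are intron in that longer transcript are printed (chr12:25096254-25096342, minus strand), and for Id4 the whole window (chr13:48260866-48261115, plus strand). Capitals mark the Smad GC box GGCGCC and the RBPJ core TGGGAA or its reverse complement.
Id2: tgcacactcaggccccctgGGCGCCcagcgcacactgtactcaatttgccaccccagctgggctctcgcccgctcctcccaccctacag
Id4: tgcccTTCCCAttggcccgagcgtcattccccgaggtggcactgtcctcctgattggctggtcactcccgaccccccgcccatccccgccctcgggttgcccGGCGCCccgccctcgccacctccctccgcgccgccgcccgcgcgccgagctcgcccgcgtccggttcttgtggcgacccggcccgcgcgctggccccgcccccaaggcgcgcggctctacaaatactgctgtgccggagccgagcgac
The Smad GC box occurred once in each of these windows, starting 231 bases before the start in Id2 and 148 bases before it in Id4, and 9.59% of all 32851 promoter windows of that length hold it. Id4 also had an RBPJ core at 245 bases before the start, which 21.6% of all windows have. The Id3 window lies within an exon in GENCODE and is not shown, and it held none of the 7 motifs searched on both strands, which besides these were the E-box CANNTG, the N-box CACNAG, the Hes C-site CACGNG, the RA receptor half-site AGGTCA or AGTTCA, and the TATA box TATAAA. Since the windows of Id2 and Id3 lie inside their annotated spans and that of Id4 does not, their motifs were not compared with the direction of the genes. The windows of Id2 and Id4 were 62.8% and 75.6% G and C, against a median of 52.4% over all windows. The shares of windows were not matched for composition. A match describes letters in a window and not the binding of a factor.

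The E proteins, which the Id proteins bind, were measured at levels that differed less. Tcf3, which encodes E2A, was at 61.6 FPKM in ESCs against 82.2 FPKM in NCs. Tcf4, which encodes E2-2, was at 6.53 and 11.3 FPKM. Tcf12, which encodes HEB, was at 7.01 and 23.6 FPKM and was the only 1 of the 3 that rose (3.37-fold), while Tcf4 rose as well when both conditions were scaled to the same total. Their sum was 75.2 FPKM in ESCs against 117 FPKM in NCs, 1.56-fold higher. The summed Id level was therefore 0.538 of the summed E protein level in ESCs and 5.58 times that level in NCs. These are ratios of mRNA levels per length and not of proteins.

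**Figure D3:**
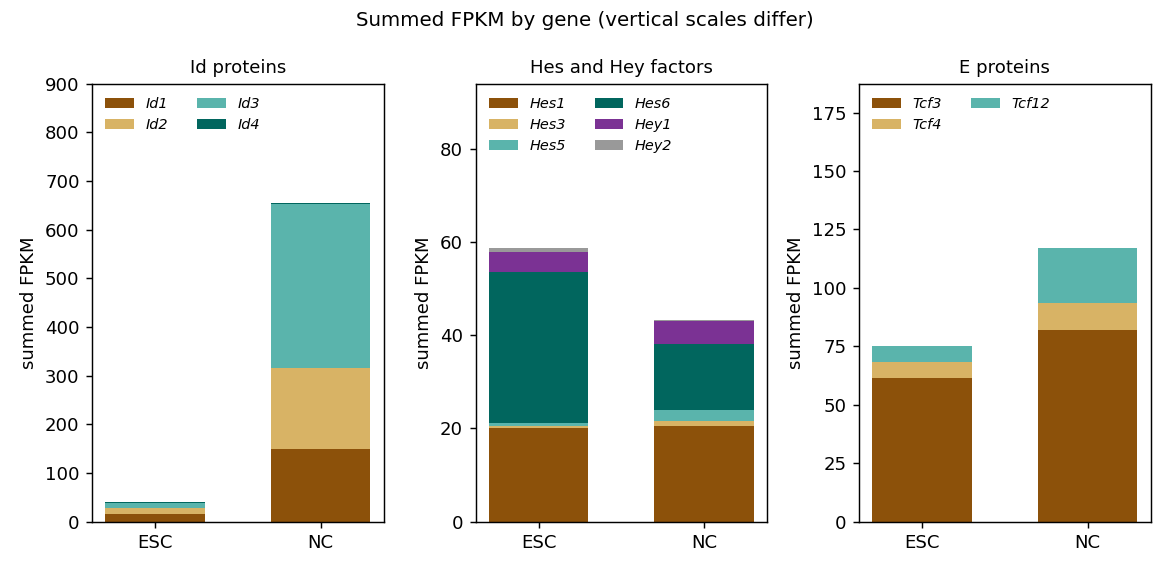
Summed FPKM in ESCs and NCs for the 4 Id genes, the 6 Hes and Hey genes and the 3 E protein genes, stacked by gene, with vertical scales that start at 0 and differ between panels (pooled values, no error available). The Id sum went from 40.4 to 653.8 FPKM with Id3 as its largest part in NCs, while the Hes and Hey sum went from 58.8 to 43.2 FPKM.

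The genes of the BMP pathway, which drives Id transcription, were counted from 2 lists. For these and the later lists, the shares to compare are those over all genes that reached 1 FPKM, of which 12.5% rose and 10.6% fell. Among 13 BMP ligands and receptors, 10 reached 1 FPKM, of which 4 rose, 1 fell and 5 stayed within 2-fold (median log2 ratio 0.79, against -0.03 over all genes that reached that level). The ligand gene Bmp2 rose from 0.209 to 2.20 FPKM (10.5-fold) and Bmp7 from 7.14 to 16.5 FPKM. Bmp4, the ligand best known for Id induction in ESCs, was at 4.06 and 7.16 FPKM, within 2-fold, and scaled to the same total it was past it. The type I receptor gene Bmpr1a rose from 17.4 to 36.8 FPKM and the type II receptor gene Acvr2a from 3.62 to 9.25 FPKM. Gdf3, a ligand of the same superfamily that marks pluripotent cells, fell 4.63-fold, from 27.4 to 5.93 FPKM.

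Among 14 Smads and feedback targets of the BMP pathway, 12 reached 1 FPKM, of which 6 rose, 0 fell and 6 stayed within 2-fold (median log2 ratio 0.89). Smad1, which carries the BMP signal to DNA, rose from 6.20 to 13.4 FPKM (2.17-fold), and the inhibitory Smad6 rose from 2.73 to 13.1 FPKM (4.79-fold). The homeobox gene Msx1 rose from 0.117 to 5.75 FPKM (49.3-fold) and Msx2 from 0.704 to 4.11 FPKM (5.84-fold). Atoh8, another helix-loop-helix gene, rose from 0.0598 to 3.96 FPKM (66.2-fold). Nog, which encodes the secreted BMP antagonist noggin, rose 3.17-fold, from 1.04 to 3.30 FPKM. Not every feedback gene of the list was higher, since the inhibitory Smad7 was at 7.0 FPKM in ESCs against 3.97 FPKM in NCs and the decoy receptor gene Bambi at 2.13 and 2.54 FPKM. Msx1, Msx2, Atoh8 and Bmp2 were under 1 FPKM in ESCs and reached that level through NCs alone.

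Hes1 (chr16:30064384-30067796, plus strand), the best known Notch effector, was at 20.1 FPKM in ESCs against 20.6 FPKM in NCs (log2 ratio 0.03). It was the second highest member in ESCs and the fourth in NCs. Hey1 (chr3:8663359-8667256, minus strand), another Notch target, was at 4.38 and 4.82 FPKM (log2 ratio 0.14). With no replicate values, and with the test results of the authors not used, a difference of this size was not set against its error.

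Hes6 (chr1:91411483-91414038, minus strand), which opposes Hes1, fell from 32.5 FPKM in ESCs, the highest level of any member there, to 14.3 FPKM in NCs. This was 2.27-fold lower (log2 ratio -1.18), with a lower ratio in 1115 genes (8.39%), and scaled to the same total the log2 ratio was -0.89, within 2-fold. The ratio of Hes1 to Hes6 was 0.621 in ESCs and 1.44 in NCs, and a ratio of genes within a condition does not depend on that scaling.

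Hes5 (chr4:154960923-154962371, plus strand), the Notch effector of neural progenitors, was at 0.592 FPKM in ESCs against 2.30 FPKM in NCs. It rose 3.89-fold (log2 ratio 1.96), and 697 genes (5.24%) had a larger ratio. Hes5 reached 1 FPKM through NCs alone, and 83.5% of the 13292 genes had a higher level than Hes5 there. Of its 50-base words 21.8% also occurred in Gm20421, a transcript on the other strand that overlaps the promoter and the gene, so reads in the shared stretch cannot be assigned to a gene.

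The promoter of Hes5 is printed because Hes5 was the single Notch target among the members that rose. The window (chr4:154960673-154960922, plus strand, GRCm38.p6) has the same marking as above, with the RBPJ core and the Smad GC box in capitals.
Hes5: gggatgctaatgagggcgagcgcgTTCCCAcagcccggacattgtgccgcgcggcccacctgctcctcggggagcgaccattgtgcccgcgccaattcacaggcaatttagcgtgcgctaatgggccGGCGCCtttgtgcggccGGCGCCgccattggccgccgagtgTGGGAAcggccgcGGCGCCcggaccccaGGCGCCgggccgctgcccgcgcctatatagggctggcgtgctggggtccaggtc
It held the RBPJ core at 2 places, starting 226 and 82 bases before the start, and 2.77% of all windows hold it at 2 or more. It held the Smad GC box at 4 places, starting 123, 106, 69 and 54 bases before the start, and 1.43% of all windows hold that box at 2 or more. The window was rich in CpG dinucleotides, with 32 against a median of 6, and in G and C, with 71.6% against a median of 52.4%. The shares of windows were not matched for this composition. Hey2 had 1 RBPJ core, at 207 bases before its start, and the windows of Hes6 had none. One Hes6 window (chr1:91413223-91413472), which lies inside the annotated Hes6 span, held an RA receptor half-site, which 24.2% of all windows hold. The other member windows held no such half-site.

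Hes3 and Hey2 were under 1 FPKM in both conditions and were left out of the counts. Hes3 (chr4:152285972-152291662, minus strand), which is known from the early neuroepithelium, was at 0.361 FPKM in ESCs against 0.997 FPKM in NCs, just under the limit. Hey2 (chr10:30832359-30842801, minus strand), a Notch target best known from vessels and heart, was at 0.806 FPKM in ESCs against 0.155 FPKM in NCs. Depth per sample is unknown, but the lowest values of the table lie in steps that give an approximate value for 1 fragment, under an assumed fragment length of 200 bases and a reading chosen after the data were seen. A smaller common step lay at 0.0119 in ESCs and 0.00715 in NCs (FPKM times kilobases) and would give larger numbers of fragments. The reading took the larger common step, 0.0138 in ESCs and 0.0135 in NCs. On that reading the level of Hes3 rested on about 43 fragments in ESCs and 120 in NCs, that of Hes5 on about 46 and 183, and that of Hey2 on about 138 and 27, over 3 libraries. The other 7 members rested on at least 352 fragments in either condition. These numbers bear on counting error alone and not on the spread among cultures.

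Summed over the 6 Hes and Hey genes, the level was 58.8 FPKM in ESCs against 43.2 FPKM in NCs, 1.36-fold lower. Hes6 made up 55.3% of the sum in ESCs and 33.1% in NCs, and Hes1 made up 34.3% and 47.7%. The leading gene of the family was thus Hes6 in ESCs and Hes1 in NCs. Hes5 made up 1.01% of the sum in ESCs and 5.33% in NCs. The Id sum was 0.689 of the Hes and Hey sum in ESCs and 15.1 times that sum in NCs.

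In the order of levels per length, the members in ESCs ran Hes6, Hes1, Id1, Id2, Id3, Hey1, Id4, Hey2, Hes5 and Hes3. In NCs the order was Id3, Id2, Id1, Hes1, Hes6, Hey1, Hes5, Id4, Hes3 and Hey2. Without replicate values it could not be said which neighbours in either order differ beyond their spread. In ESCs Hes1, Id1, Id2 and Id3 each lay within 1.5-fold of the next, as did Hey2 and Hes5, and in NCs the same held for Id2 and Id1, for Hes1 and Hes6, and for Id4 and Hes3.

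**Figure D4:**
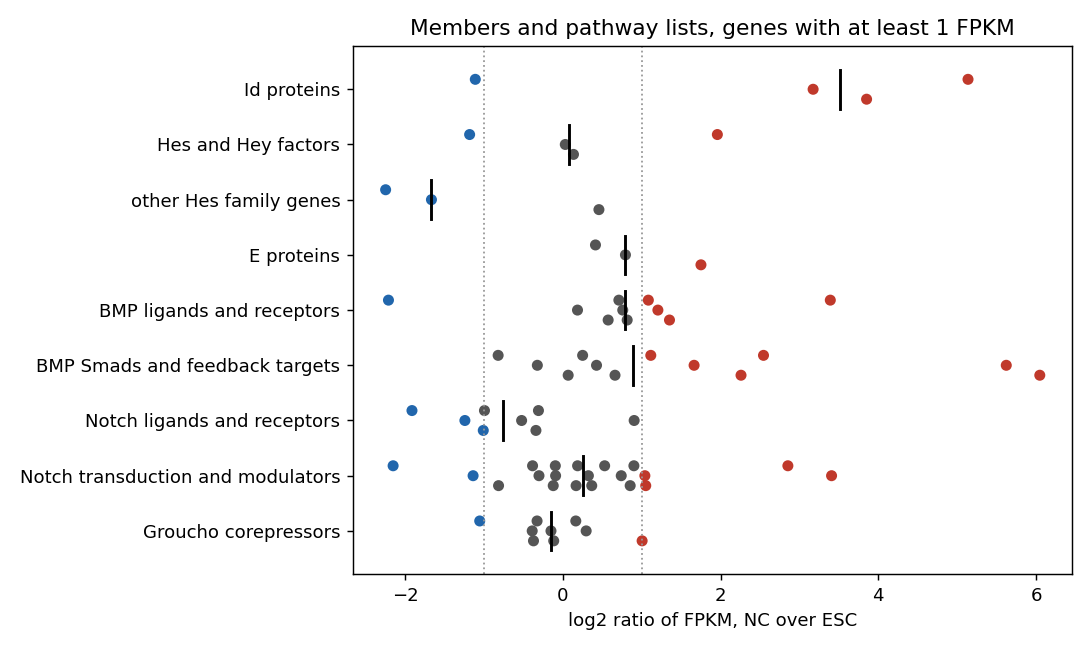
Log2 ratio of the NC to the ESC FPKM for each gene with at least 1 FPKM in either condition, by list (points, red for at least 2-fold higher, blue for at least 2-fold lower, grey for within 2-fold), with a bar at the median of each list and dotted lines at 2-fold. The BMP lists have medians of 0.79 and 0.89, the Notch ligands and receptors have a median of -0.76, and 3 of the 4 Id genes lie at 3.17 or above.

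Notch ligands and receptors, which act upstream of Hes1, Hes5, Hey1 and Hey2, fell or stayed within 2-fold where they reached 1 FPKM. Of 9 listed genes, 8 reached 1 FPKM, of which 0 rose, 3 fell and 5 stayed within 2-fold (median log2 ratio -0.76), and after scaling to the same total 1 rose (Notch2) and 1 fell (Notch4). The receptor gene Notch4 fell from 1.79 to 0.475 FPKM. The ligand genes Dll3 and Jag1 fell from 5.62 to 2.38 FPKM and from 5.55 to 2.76 FPKM, and Jag1 lay close to the limit, at 2.01-fold. With a pseudocount of 0.1 FPKM or scaling to the upper quartile 2 genes of the list fell, and with a pseudocount of 1 FPKM 0 did. Notch4 reached 1 FPKM through ESCs alone, which fixed its direction. Notch1, the receptor of neural progenitors, was at 12.8 FPKM in ESCs against 6.42 FPKM in NCs, 1.99-fold lower and just within the limit. Notch3 was at 22.6 and 15.8 FPKM, and Notch2 was at 5.32 and 9.97 FPKM.

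Of 21 genes for Notch signal transduction and its modulators, 20 reached 1 FPKM, of which 4 rose, 2 fell and 14 stayed within 2-fold (median log2 ratio 0.26). Rbpj, which binds the TGGGAA core, was at 67.2 FPKM in ESCs against 38.2 FPKM in NCs, within 2-fold. Its coactivator genes Maml1 and Maml3 rose, Maml1 from 6.85 to 14.1 FPKM and Maml3 from 0.513 to 5.45 FPKM, and the receptor protease gene Adam10 rose from 10.2 to 21.1 FPKM. Maml3 reached 1 FPKM through NCs alone, which fixed its direction. Dlk1, a ligand-like gene that can inhibit Notch, rose from 1.34 to 9.65 FPKM (7.23-fold). Dtx1, a Notch modulator and target, fell from 14.1 to 3.18 FPKM (4.44-fold), and Mfng, a fringe glycosyltransferase gene, fell from 8.52 to 3.87 FPKM, though scaled to the same total Mfng was within 2-fold. Nrarp, a feedback target of Notch, was at 4.21 and 3.95 FPKM, like Hes1 and Hey1 near the same level in both conditions.

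The Groucho corepressors and their partners, with which Hes proteins repress, stayed mostly within 2-fold. Of 10 listed genes, 9 reached 1 FPKM, of which 1 rose, 1 fell and 7 stayed within 2-fold (median log2 ratio -0.15). Aes, a short Groucho family member, fell from 92.8 to 44.7 FPKM, and Tle2 rose from 0.670 to 1.35 FPKM. Both lay close to the limit, at 2.07-fold and 2.01-fold, and the call of Aes was lost when values were scaled to the same total or to the upper quartile and that of Tle2 with a pseudocount of 0.1 FPKM. Tle2 also reached 1 FPKM through NCs alone, which fixed its direction.

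Of 6 other genes of the wider Hes family, 3 reached 1 FPKM, of which 0 rose, 2 fell and 1 stayed within 2-fold. Bhlhe40 and Bhlhe41, which repress clock and differentiation genes, fell from 28.5 to 6.01 FPKM (4.74-fold) and from 1.42 to 0.448 FPKM (3.17-fold). Bhlhe41 reached 1 FPKM through ESCs alone, which fixed its direction. Hes7, the oscillator of somite formation, was at 1.15 and 1.58 FPKM.

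Hes factors repress the proneural and neurogenic genes, and Id proteins deprive their products of E proteins. Among these genes Neurod1, a neuronal differentiation factor, fell from 10.1 to 0.259 FPKM. Neurod1 reached 1 FPKM through ESCs alone, which fixed its direction. Neurog2 was at 0.0436 FPKM in ESCs against 0.913 FPKM in NCs, and Neurog1 at 0.0958 and 0.710 FPKM, so both of these neurogenin genes stayed under 1 FPKM in either condition.

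The labels of both groups were read against marker genes, and so were other cell types that could be present. All 10 pluripotency markers fell, with a sum of 2548 FPKM in ESCs against 213 FPKM in NCs. Of 10 neural progenitor markers 7 rose (3 of them, Pax3, Zic1 and Irx3, reached 1 FPKM through NCs alone), 1 fell and 2 stayed within 2-fold, with a sum of 49.5 and 234 FPKM. Neuron markers as a set did not rise as the name neuronal cells would have it. Of 10 genes 7 reached 1 FPKM, and 0 rose, 4 fell and 3 stayed within 2-fold. Elavl3 and Syp, among those that fell, reached 1 FPKM through ESCs alone, which fixed their direction. The sum was 191 FPKM in ESCs against 25.8 FPKM in NCs, of which Stmn2 made up 142 and 11.8 FPKM. Dcx, under 1 FPKM in both conditions, was higher in NCs, at 0.014 and 0.334 FPKM. The summed level of the 10 extraembryonic endoderm markers was 22.1 FPKM in ESCs and 47.0 in NCs. Of 8 that reached 1 FPKM 6 rose and 0 fell, but 3 of the 6, Sox17, Foxa2 and Sox7, reached it through NCs alone. Gata6, Dab2 and Cubn rose from levels already above 1 FPKM in ESCs. Gata6 went from 2.37 to 5.48 FPKM, Dab2 from 9.004 to 19.33 FPKM and Cubn from 2.07 to 4.21 FPKM. The later markers Afp and Ttr were under 1 FPKM in both conditions and higher in NCs. Afp was at 0.0161 FPKM in ESCs against 0.0871 FPKM in NCs, and Ttr at 0.0848 and 0.526 FPKM. Of 3 mesoderm markers that reached 1 FPKM 2 rose, Meox1 and Foxf1, and both reached it through NCs alone, which fixed their direction (sum over 10 genes 4.45 and 11.1 FPKM), with the primitive streak gene T at 0.628 and 0.299 FPKM. Of 8 fibroblast markers that reached 1 FPKM 6 rose, 3 of them through NCs alone, and 2 fell. The sum over 10 genes was 177 FPKM in ESCs against 104 FPKM in NCs, of which Fn1 made up 155 and 42.5 FPKM. Col1a2 rose from 3.47 to 23.3 FPKM and Twist1 from 1.76 to 14.4 FPKM, while Thy1 fell from 9.64 to 1.80 FPKM. Lum was at 0 and 0.0691 FPKM. The part of these cells in the levels of the Id and Hes genes was not tested.

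For the 6 members that rose or fell, the genes nearest in level were found by the distance on log2(FPKM + 1) over the 2 conditions, which is a description over 2 values only. Nearest to Id1 were 2310039L15Rik and Abt1, at distances of 0.159 and 0.258. Nearest to Id2 were Dcdc2c and Gm20767, at 0.244 and 0.263. Id3 had no gene as close, with Stra8 at 0.780 and Gm7102 at 0.826. Stra8, a meiosis gene known for its induction by RA, was at 5.15 FPKM in ESCs against 340.2 FPKM in NCs. The lower members had much closer genes, with Ubxn11 at 0.03 and Gm14873 at 0.035 from Id4. H60b was at 0.0131 and Anks6 at 0.0487 from Hes5, and Snora2b at 0.0461 and Trp53i11 at 0.0494 from Hes6.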

How the data were processed

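The authors prepared TruSeq libraries, sequenced them on a HiSeq instrument, mapped the reads to mm10 (GRCm38) using Bowtie2 2.1.0 within TopHat2 2.0.8, and computed FPKM with Cufflinks 2.0.2. The deposited FPKM are 1 per gene and condition, from Cuffdiff over 3 replicates (version, gene set release and use of strand not given in the sources used here). The NC column is headed FPK and was taken as FPKM, since the ratio of both columns matches the deposited fold column. Beyond that check, columns with the fold changes and test results of the authors were not used. The values summed to 770592 in ESCs and 628679 in NCs, and the number of fragments is unknown.

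Rows sharing a name (426) were summed. Ratios were taken without a pseudocount, with a limit of 2-fold among genes with at least 1 FPKM in either condition. The median log2 ratio was -0.05 over 11717 genes with at least 1 FPKM in both. With 1 value per condition no p-value, SD or n is given. All members were named, and from each list up to 4 genes past the limit in each direction, the E proteins, Notch1, Rbpj, Bmp4, Smad1, and the 2 genes nearest to each member that rose or fell. Smad7, Bambi, Nog, Notch2, Notch3, Nrarp, Hes7, Neurog1 and Neurog2 were added after their values were seen. The members and lists were chosen with earlier results of these data known. Part of the proneural list is not reported here. Positions came from GENCODE M21 and promoters from RefSeq. The scripts were tested on simulated data and ran on Python 3.11.15 with numpy 2.4.6, pandas 2.3.3 and matplotlib 3.10.9. The 10 alternatives concerned the pseudocount, scaling, filter, fold limit and shared names.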

Additional observations from a re-analysis of the deposited data

How the results depend on the processing

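The table holds 1 pooled value per condition, which limits every result here to a value without an error, and leaving out single replicates was not possible. No paired analysis was possible because the columns carry no replicate numbers. Under the 10 alternatives run, Id1, Id2 and Id3 were called higher each time, with log2 ratios of 3.10 to 3.47, 3.74 to 4.15 and 5.0 to 5.43. The log2 ratio of Hes5 ranged from 1.05 to 2.25, that of Id4 from -1.11 to -0.73 and that of Hes6 from -1.18 to -0.89. No log2 ratio of a member or of the summed levels turned its direction. The shares of all genes changed order in 1 setting. With a minimum of 5 FPKM 8.34% were higher and 8.77% lower, against 12.5% and 10.6% as reported.

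The number of members at least 2-fold higher, 4 as reported, was 5 without a filter, 3 with a minimum of 5 FPKM and 3 at a 4-fold limit. In the last 2 settings Hes5 was the member no longer called. The number of members at least 2-fold lower, 2 as reported, was 1 with a pseudocount of 1 FPKM, 1 with a minimum of 5 FPKM, 0 with both conditions scaled to the same total and 0 at a 4-fold limit. Without a filter it was 3. The share of all genes that were higher, 12.5% as reported, was 8.07% with a pseudocount of 1 FPKM, 19.7% without a filter, 20.6% at a 1.5-fold limit and 5.10% at a 4-fold limit. The share that were lower, 10.6% as reported, was 19.4% at a 1.5-fold limit and 3.67% at a 4-fold limit. The limits and the filter change these numbers by construction. So do the other settings, since scaling to the same total adds 0.29 to every log2 ratio and a pseudocount shrinks the ratios of low genes most. Among the counts over pathway lists, scaling to the same total moved the rises of BMP ligands and receptors from 4 to 7 and those of the Notch transduction genes from 4 to 7.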

Other observations

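The genes that flank each member on the chromosome were looked up after the values of the members had been seen. Taking 2 genes on either side gave 40 distinct neighbours, of which 4 rose, 4 fell, 23 stayed within 2-fold and 9 were under 1 FPKM in both conditions, while 12.5% of all genes that reached 1 FPKM rose and 10.6% fell. Beside Id1, Id2 and Id3 there were 12 neighbours, 11 of which reached 1 FPKM, with 2 that rose, 1 that fell and 8 within 2-fold. Bcl2l1, which encodes an inhibitor of apoptosis 43.3 kb from Id1, rose from 16.6 to 39.6 FPKM. Rnf144a, a ubiquitin ligase gene 1200 kb from Id2, rose from 4.04 to 9.30 FPKM. Asap3, 60.6 kb from Id3, fell from 2.84 to 1.36 FPKM.

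Id3, Hes3 and Hes5 all lie on chromosome 4. Gpr153, a receptor gene 0.635 kb from Hes3, rose from 4.72 to 13.9 FPKM, while Hes3 stayed under 1 FPKM. Pank4, 1.75 kb from Hes5, was at 21.0 FPKM in ESCs against 20.8 FPKM in NCs. Stmn2, a neuronal stathmin gene 102 kb from Hey1, fell from 142 to 11.8 FPKM, and Hey1 stayed within 2-fold.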
